A study of Mus musculus with 12 samples.

Results

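Ppargc1a, Ppargc1b, Ppara, Esrra, Esrrg, Nrf1, Tfam and Rxra are 8 genes that together set the oxidative capacity of a cell. They were taken by name from a table of mouse transcripts, each transcript matched to its gene by Ensembl identifier and the values summed per gene, which gave 8 of the 13465 genes measured. All 8 passed the filter on low values and were tested among 12469 genes. The table holds bulk RNA sequencing of mouse kidney cortex, 12 libraries in 4 groups of 3, and the series asks how loss of Gpx3 affects the kidney. Knockout (CKO) mice lacked Gpx3, the gene of a secreted glutathione peroxidase, in renal tubular epithelial cells. CKO IRI and WT IRI kidneys came from knockout and wild-type mice after ischemia-reperfusion injury, with both kidneys kept without blood for 30 min and reperfused for 48 h. CKO sham and WT sham kidneys had the sham operation. The promoter that drove the deletion, the strain, the sex and the age were not given. The labels do not say whether libraries came from separate animals, and p-values then measure only library-to-library spread, which may be technical.

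PGC-1α and PGC-1β, the products of Ppargc1a and Ppargc1b, bind no DNA themselves and act as coactivators docked on transcription factors. Their partners include PPARα, which works as a heterodimer with RXRα and switches on fatty acid oxidation. Other partners are the estrogen-related receptors ERRα and ERRγ, which drive genes of the citric acid cycle and respiratory chain, and nuclear respiratory factor 1, which drives nuclear genes of mitochondrial function, Tfam among them. TFAM packages mitochondrial DNA and starts its transcription. Proximal tubule cells are rich in mitochondria and live largely on fatty acids, so this circuit is much studied in acute kidney injury.

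The libraries were first set against their labels. Summed values lay between 391002 and 422328 FPKM (fragments per kilobase of transcript, scaled to the size of the library), and the read depth behind them is unknown. Gpx3, the targeted gene, measured 2501, 3037 and 3299 FPKM in CKO sham 1, 2 and 3, below the 5664, 4476 and 5371 FPKM of WT sham 1, 2 and 3. After injury it measured 3723, 3025 and 2779 FPKM in CKO IRI 7, 15 and 29, and 2788, 3568 and 1075 FPKM in WT IRI 13, 24 and 49. Gpx3 thus did not separate the genotypes among injured kidneys, and comparisons there are of libraries as labelled. Genes varied most among WT IRI libraries, with a median SD of 0.271 on the log2(FPKM + 1) scale, against 0.223 in CKO IRI, 0.166 in CKO sham and 0.099 in WT sham. WT IRI 13 stood apart in giving the mitochondrial genome 3.94% of its summed FPKM, where the other libraries gave 7.36% to 12.32%. Each of the 16 proximal tubule markers examined was listed in the table, whereas 6 of 8 markers of joint and cartilage had no row in it. That check was made because the extraction protocol in the labels speaks of joint capsule while the tissue is given as kidney.

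FPKM allows levels to be set beside each other per length of transcript. In WT sham kidneys Esrra was highest, at 61.4 ± 0.449 FPKM (SD, n = 3), followed by Rxra at 25.3 ± 0.724 and Ppargc1a at 14.7 ± 0.275 FPKM. Esrrg averaged 12.3 ± 0.908, Tfam 10.8 ± 0.581 and Ppara 9.52 ± 2.78 FPKM. Nrf1 averaged 3.64 ± 1.08 and Ppargc1b 3.27 ± 0.786 FPKM. The libraries of Esrra, Rxra and Ppargc1a did not overlap with those of their neighbours in this order, and those of Ppara and Nrf1 did not overlap either. Tfam met Esrrg at 11.5 FPKM and overlapped with Ppara, and Nrf1 overlapped with Ppargc1b.

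**Figure D1:**
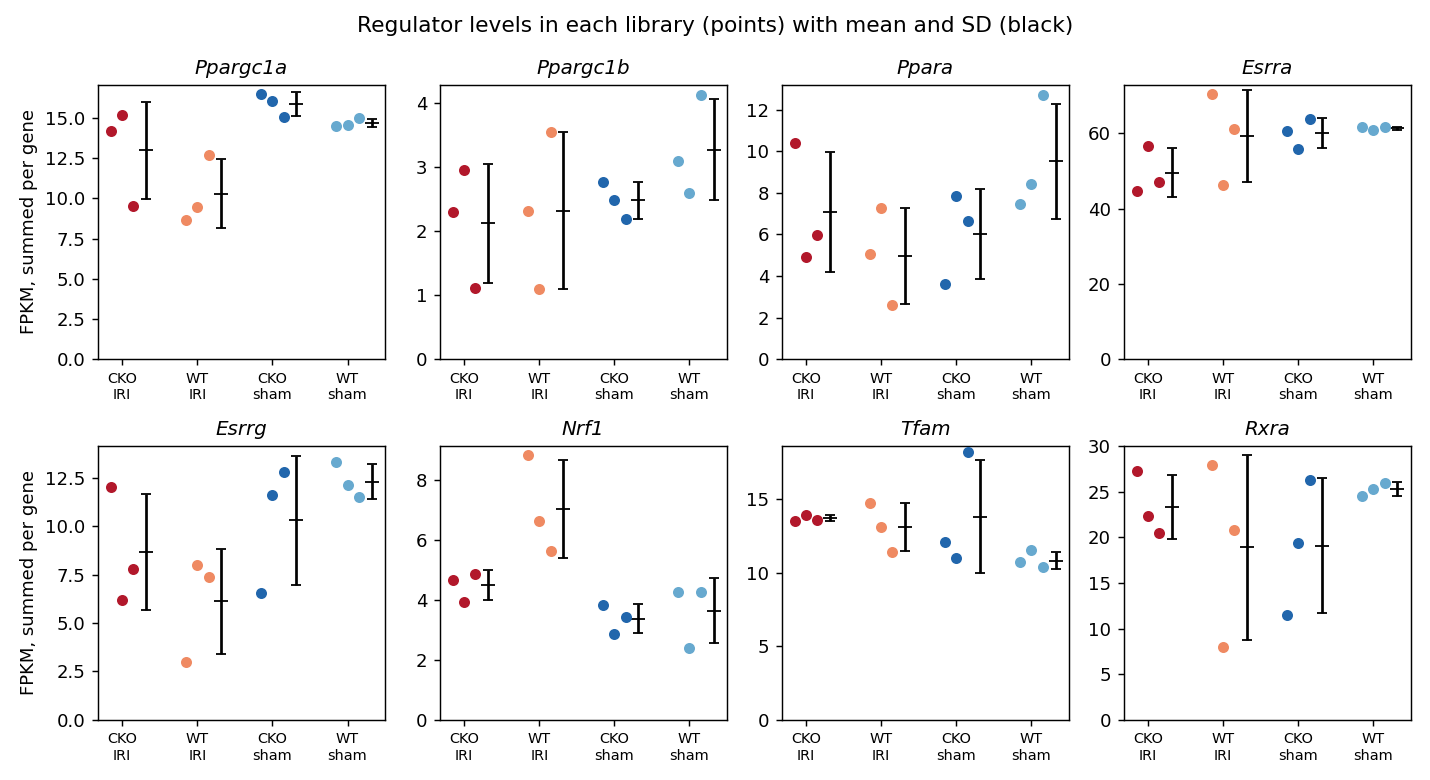
FPKM summed per gene (y axis) in each library (coloured points) of the CKO IRI, WT IRI, CKO sham and WT sham groups (x axis), with the mean and SD of 3 libraries in black. Ppargc1a and Esrrg lie lower in WT IRI libraries than in any WT sham library, Nrf1 lies higher, and Esrra stays between 44.7 and 70.5 FPKM throughout.

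The question of the first comparison was what injury did to these regulators in kidneys with Gpx3. Ppargc1a and Esrrg fell, and no other member passed the test. Calls rest on limma fitted to log2(FPKM + 1) over all 12469 tested genes with a Benjamini-Hochberg adjusted p under 0.05. By that rule 2 of 8 members were lower in WT IRI kidneys, where 35.4% of all tested genes were called in either direction and 11.8% were called lower. At an unadjusted p under 0.05 there were 2 lower members and 1 higher one, where 15.8% of all tested genes were lower and 29.8% higher. Libraries of WT IRI and WT sham did not overlap for 4 members, of which 3 lay lower and 1 higher, where 19.5% of all tested genes lay lower without overlap and 35.2% higher. An exact two-sided permutation test of 3 against 3 libraries can give no p below 0.1. Groups without overlap always receive that p, so its 0.1 for these 4 members adds nothing to the lack of overlap.

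Ppargc1a, the coactivator at the centre of the circuit, measured 8.63, 9.48 and 12.7 FPKM in WT IRI 13, 24 and 49, against 14.5, 14.6 and 15 FPKM in WT sham 1, 2 and 3. Every WT IRI library lay below every WT sham library. The fall was -0.49 on the log2 scale (SE 0.16, limma adjusted p = 0.0366), with a 95% interval of -0.85 to -0.13. In CKO IRI 7, 15 and 29 the gene measured 14.2, 15.2 and 9.53 FPKM, against 16.5, 16.1 and 15.1 FPKM in CKO sham 1, 2 and 3. CKO IRI 29 stood low there, while CKO IRI 15 reached into the range of CKO sham. The difference in CKO was -0.30 (SE 0.16, limma adjusted p = 0.266), with an interval of -0.64 to 0.04. The deposited value of Ppargc1a is that of 1 transcript, Ppargc1a-203.

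Ppargc1b, the close relative that shares many partners, was not called in either genotype. It measured 2.31, 1.10 and 3.54 FPKM in WT IRI 13, 24 and 49, against 3.09, 2.59 and 4.13 FPKM in WT sham 1, 2 and 3, which differed by -0.42 (log2, SE 0.30, limma adjusted p of 0.307). Values in CKO IRI 7, 15 and 29 were 2.30, 2.95 and 1.11 FPKM, against 2.77, 2.49 and 2.19 FPKM in CKO sham 1, 2 and 3. Injured and sham libraries overlapped in both genotypes.

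Among the receptors, Esrrg had the clearest fall in WT. ERRγ is the estrogen-related receptor of tissues with a high oxidative load. Its gene measured 2.98, 7.97 and 7.37 FPKM in WT IRI 13, 24 and 49, against 13.3, 12.1 and 11.5 FPKM in WT sham 1, 2 and 3. All 3 injured libraries lay below the sham ones, and WT IRI 13 was the lowest of the 12. The change was -0.99 (log2, SE 0.32, limma adjusted p = 0.0347), with an interval of -1.70 to -0.28. The knockout libraries CKO IRI 7, 15 and 29 held 12, 6.21 and 7.80 FPKM, against 6.56, 11.6 and 12.8 FPKM in CKO sham 1, 2 and 3, and these libraries overlapped (-0.22, SE 0.31, limma adjusted p = 0.705). The genotype by injury interaction was 0.76 (log2, SE 0.45, limma adjusted p = 0.383), so a difference between the genotypes in this fall was not shown.

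Neither call held when some libraries were left out. Without WT IRI 13 the change of Ppargc1a was -0.38 (limma adjusted p = 0.127) and that of Esrrg -0.61 (limma adjusted p = 0.159). Without WT IRI 24 these were -0.45 (limma adjusted p = 0.204) and -1.20 (limma adjusted p = 0.0882). Both calls were also lost without WT sham 1 or WT sham 2, that of Ppargc1a without WT sham 3 and that of Esrrg without CKO IRI 29, while the differences stayed between -0.50 and -0.48 for Ppargc1a and between -1.0 and -0.94 for Esrrg. With WT IRI 49 left out, the library of lowest Gpx3, both were called. With only the WT groups fitted, limma gave an adjusted p of 0.0571 for Ppargc1a and 0.0553 for Esrrg.

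Esrra, which encodes the related receptor ERRα and is itself induced by PGC-1α, was not called in either genotype. It measured 70.5, 46.3 and 61.1 FPKM in WT IRI 13, 24 and 49, against 61.6, 60.9 and 61.8 FPKM in WT sham 1, 2 and 3. Injured WT libraries lay on either side of the sham ones, and the difference of -0.07 had an interval of -0.37 to 0.23 (log2). The CKO IRI libraries 7, 15 and 29 held 44.7, 56.8 and 47.2 FPKM, against 60.6, 55.9 and 63.9 FPKM in CKO sham 1, 2 and 3, and differed by -0.28 (log2, SE 0.13, limma adjusted p of 0.216). The CKO groups overlapped through CKO IRI 15 and CKO sham 2.

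Ppara, the receptor of fatty acid catabolism, measured 5.04, 7.26 and 2.62 FPKM in WT IRI 13, 24 and 49, against 7.45, 8.43 and 12.7 FPKM in WT sham 1, 2 and 3. The WT groups did not overlap, although WT IRI 24 came close to WT sham 1. The difference was -0.86 (log2, SE 0.41) and did not pass the test (limma adjusted p = 0.122). In CKO IRI 7, 15 and 29 it measured 10.4, 4.92 and 5.98 FPKM, against 3.61, 7.83 and 6.66 FPKM in CKO sham 1, 2 and 3, with the highest value in CKO IRI 7 and the lowest in CKO sham 1. That difference was 0.20 (log2, SE 0.39, limma adjusted p = 0.805). It was -0.08 without CKO IRI 7 and likewise -0.08 without CKO sham 1. Its interaction was the largest of the 8 members, at 1.06 (log2, SE 0.56), and did not pass (limma adjusted p = 0.343).

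Rxra, the obligate partner of PPARα, measured 27.9, 7.95 and 20.8 FPKM in WT IRI 13, 24 and 49, against 24.5, 25.3 and 26 FPKM in WT sham 1, 2 and 3. WT IRI 24 stood alone at the low end. Without it the difference was -0.07 (log2), against -0.56 with it (SE 0.36, limma adjusted p = 0.248). Values were 27.3, 22.3 and 20.5 FPKM in CKO IRI 7, 15 and 29, against 11.5, 19.4 and 26.3 FPKM in CKO sham 1, 2 and 3. The library CKO sham 1 was the lowest of its group for Rxra, Ppara and Esrrg alike.

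Nrf1, the nuclear respiratory factor, was the member whose libraries lay higher after injury without overlap in both genotypes. It measured 8.83, 6.64 and 5.64 FPKM in WT IRI 13, 24 and 49, against 4.27, 2.40 and 4.25 FPKM in WT sham 1, 2 and 3. The WT groups did not overlap, and the difference of 0.80 (log2, SE 0.29) missed the threshold (limma adjusted p = 0.0516, interval 0.16 to 1.44). Over the alternatives its adjusted p ran from 0.012 to 0.204, and it was called in 6 of 23 of them. In CKO IRI 7, 15 and 29 it measured 4.66, 3.92 and 4.88 FPKM, against 3.83, 2.87 and 3.43 FPKM in CKO sham 1, 2 and 3. These groups did not overlap either, differing by 0.33 on the log2 scale (SE 0.28, adjusted p = 0.517 in limma).

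Tfam, the mitochondrial transcription factor downstream of NRF1, measured 14.7, 13.1 and 11.4 FPKM in WT IRI 13, 24 and 49, against 10.7, 11.5 and 10.4 FPKM in WT sham 1, 2 and 3. The lowest injured library fell within the sham range, and the difference was 0.24 (log2, SE 0.19, limma adjusted p = 0.351). In CKO IRI 7, 15 and 29 it measured 13.5, 13.9 and 13.6 FPKM, against 12.1, 11 and 18.2 FPKM in CKO sham 1, 2 and 3. The library CKO sham 3 owed 6.41 FPKM of its value to Tfam-205, a transcript of 472 bases that reached at most 0.356 FPKM in any other library. The main transcript, Tfam-201, lay between 11.7 and 13.5 FPKM in CKO IRI libraries and between 10.4 and 11.8 FPKM in CKO sham libraries.

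In the knockout, no member was called after injury at the adjusted threshold, where 8.62% of all tested genes were called. None had an unadjusted p under 0.05 in limma, where 24.5% of all tested genes did. Nrf1 was the 1 member of 8 whose CKO IRI and CKO sham libraries did not overlap, being higher, where 21.4% of all tested genes lay higher in that way. The point estimate was nearer 0 in CKO than in WT for 7 of 8 members, all but Esrra, but no interaction passed the test. Genes at large were also called less often in CKO, 8.62% against 35.4% in WT. The share of all tested genes nearer 0 in CKO was not counted, so the 7 of 8 cannot be read as a trait of the members. For the interaction, 0.016% of all tested genes were called. No member had an unadjusted p under 0.05 there, where 17.7% of all tested genes did.

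**Figure D2:**
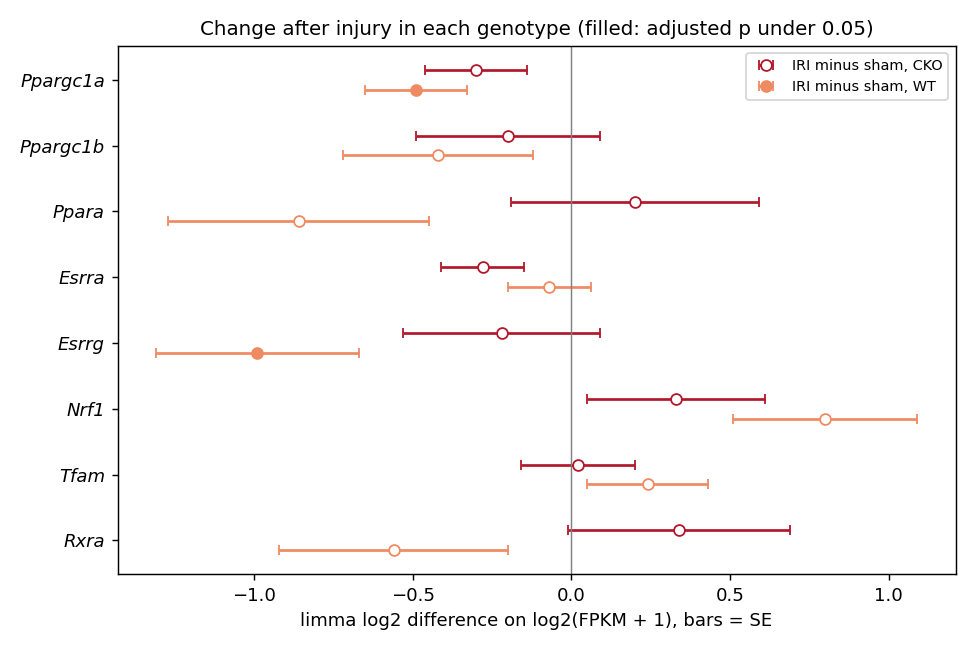
Difference between IRI and sham on the log2(FPKM + 1) scale (x axis, bars are SE) for each of the 8 regulators (y axis), CKO above WT in each pair. Filled points, with a limma adjusted p under 0.05, are Ppargc1a and Esrrg in WT at -0.49 and -0.99, and every CKO point is open.

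Bulk values cannot tell fewer tubule cells apart from less RNA per cell, and markers of some parts of the nephron also moved. Of 16 proximal tubule markers, 15 fell in WT and 3 fell in CKO, where 8 were lower at an unadjusted p under 0.05 in limma and the median was -0.73 (log2), beside -1.42 in WT. Of all tested genes, 11.8% fell in WT and 2.02% in CKO. Their summed level was 4752 to 10013 FPKM in CKO IRI libraries and 3044 to 7482 FPKM in WT IRI libraries, against 13071 to 13973 FPKM in CKO sham and 12412 to 12668 FPKM in WT sham. Of 11 markers of the loop of Henle and distal tubule, 6 fell in WT and 0 in CKO, where 1 was lower at an unadjusted p under 0.05 in limma. Of 10 collecting duct markers, 1 fell and 1 rose in WT and 0 were called in CKO. Of 8 podocyte markers, 2 fell and 1 rose in WT, and 1 fell in CKO. Fibroblast and matrix markers rose, 5 of 10 in CKO and 6 of 10 in WT, where 6.6% of all tested genes rose in CKO and 23.5% in WT. Of 12 macrophage markers, 4 rose in WT and 0 in CKO, where 1 was higher at an unadjusted p under 0.05 in limma. Endothelial markers fell, 6 of 10 in CKO with a median of -1.01 (log2) and 4 of 10 in WT with a median of -0.67. Markers of tubular injury rose, 9 of 10 in CKO and 10 of 10 in WT. No marker listed for the proximal tubule was at 0 in any library. The part of these shifts in the values of the 8 regulators was not tested.

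The second comparison set CKO beside WT libraries, as labelled, without injury and after it. Between CKO sham and WT sham no member was called, where 0.136% of all tested genes were called. None had an unadjusted p under 0.05, where 17.8% of all tested genes did. Ppargc1a was the 1 member without overlap, at 15.1 to 16.5 FPKM in CKO sham and 14.5 to 15 FPKM in WT sham, a difference of 0.11 (log2, interval -0.13 to 0.36). In this comparison 15% of all tested genes lay higher without overlap. Ppara averaged 6.03 ± 2.18 FPKM in CKO sham and 9.52 ± 2.78 FPKM in WT sham (SD, n = 3 each), a difference of -0.60 (log2, limma adjusted p = 0.29, interval -1.22 to 0.02). After injury, no member was called between CKO IRI and WT IRI either, where 0.016% of all tested genes were called. None had an unadjusted p under 0.05, where 12.6% of all tested genes did. Nrf1 averaged 4.49 ± 0.502 FPKM in CKO IRI and 7.04 ± 1.63 FPKM in WT IRI (SD, n = 3 each), and these libraries did not overlap (-0.53, log2, SE 0.35, limma adjusted p = 0.536). For comparison, 11.5% of all tested genes lay lower without overlap there. The widest interval among the 8 members was that of Ppara, from -0.63 to 1.54 (log2), so differences of that size were not excluded.

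Summed values per gene hid differences in the make-up of Ppara. The table holds 3 transcripts of it, which share 6 exons and 1404 coding bases and differ in their first exon. Ppara lies on chromosome 15 (85734983 to 85802819, plus strand, GRCm38). The first exons start at 85735564 in Ppara-203, 212 bases further on in Ppara-202 and another 355 bases further on in Ppara-201. The 3 transcripts carry the same coding sequence, and what separates them is the start site and the noncoding sequence.

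Ppara-203 measured 2.49, 5.45 and 4.48 FPKM in CKO sham 1, 2 and 3. In WT sham 1, 2 and 3 it measured 0.27 FPKM, was listed at 0, and measured 0.346 FPKM. It lay at 0.215, 0.229 and 0.345 FPKM in CKO IRI 7, 15 and 29, and at 0.145, 0.376 and 0.242 FPKM in WT IRI 13, 24 and 49. Thus the 3 CKO sham libraries stood far above the other 9. Of all Ppara FPKM, this transcript made up 67.3% to 69.6% in CKO sham and 0.0% to 9.2% elsewhere. Ppara-201 made up 33.6% to 67.9% in CKO IRI and 0.1% to 0.3% in CKO sham, and it was also at 0.1% in WT sham 2 and 1.8% in WT IRI 13. It was not called in CKO IRI against CKO sham (limma adjusted p = 0.301) or in CKO sham against WT sham (limma adjusted p = 0.406), in a fit of 20314 transcripts chosen after these values had been seen. Ppara-202 measured 1.11, 2.36 and 2.17 FPKM in CKO sham 1, 2 and 3, and 3.01, 8.42 and 4.38 FPKM in WT sham 1, 2 and 3, and was not called (limma adjusted p = 0.336).

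These values of Ppara-203 are a description, with no test. They were picked out after they had been seen, and the transcript passed the filter of 1 FPKM in 3 libraries through CKO sham alone. Every row of the deposited table has a group mean of at least 0.5 FPKM, which Ppara-203 also reached in CKO sham alone. Short reads are shared among transcripts with common exons, and how the assembly software divided them between these 3 was not tested.

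**Figure D3:**
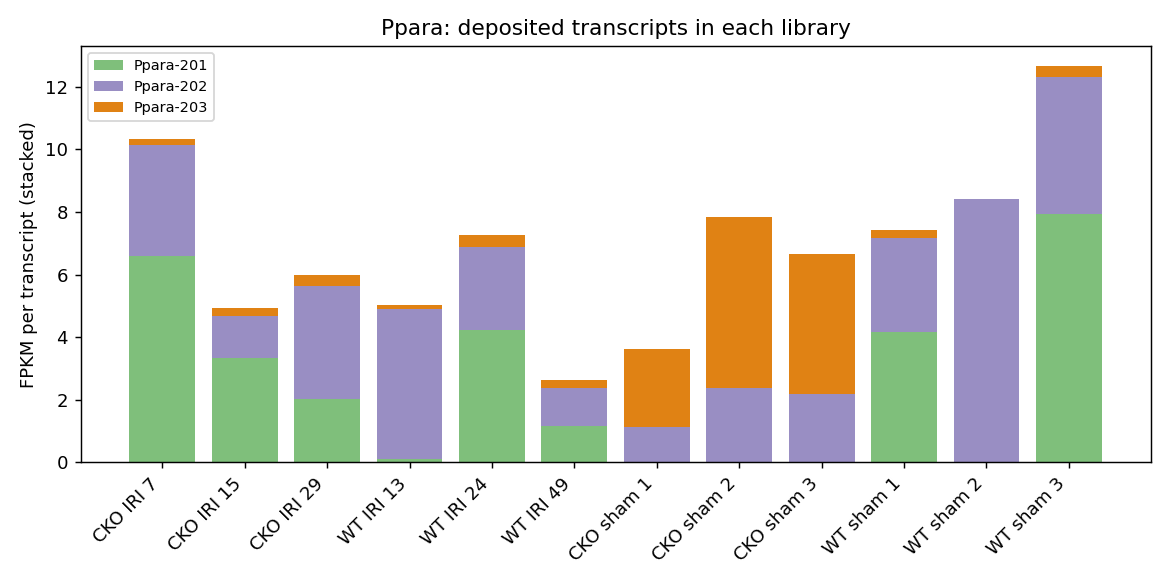
FPKM of the 3 deposited Ppara transcripts, stacked (y axis), in each of the 12 libraries (x axis). Ppara-203 makes up 67.3% to 69.6% of the bar in the 3 CKO sham libraries and at most 9.2% in the others.

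The other members had less regular transcript shares. Of 19 deposited transcripts of the 8 genes, 13 passed the filter. The fall of Esrrg in WT was carried by Esrrg-203, at 2.98, 4.31 and 7.12 FPKM in WT IRI 13, 24 and 49, against 9.56, 11.7 and 11.1 FPKM in WT sham 1, 2 and 3 (-1.08, log2, SE 0.26, limma adjusted p = 0.0192), where 7.08% of all tested transcripts were called lower. That call was lost without WT IRI 13 (limma adjusted p = 0.0741) and without WT IRI 24 (limma adjusted p = 0.116). Esrrg-201, which starts far inside the gene, varied between 0.0% and 43.1% of Esrrg with no order by group. Nrf1-214, a transcript of 1253 bases that likewise starts inside its gene, gave 57.2% to 68.9% of Nrf1 in WT IRI and 26.3% to 56.7% in WT sham. It measured 6.09, 3.82 and 3.23 FPKM in WT IRI 13, 24 and 49, and 2.25, 0.632 and 2.41 FPKM in WT sham 1, 2 and 3 (0.999, log2, limma adjusted p = 0.113). Nrf1-214 has 653 coding bases, against 1509 in Nrf1-211, the other Nrf1 transcript tested. Nrf1-211 differed by 0.351 in WT (log2, SE 0.183, limma adjusted p = 0.209). Esrra-201 held 83.3% to 99.0% of Esrra in every library. Ppargc1a-203, tested among transcripts, had the same difference as its gene and a limma adjusted p of 0.0719.

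Letters bound by factors of this circuit were looked for at the members' own start sites. Windows of 300 bases around RefSeq gene starts (250 before and 50 after, GRCm38) were searched on both strands, with 12 windows of 7 members among them. Ppargc1b was left out of the windows counted for members. The letters GCATGCGC, the core of the NRF1 motif, occurred in 2 of the 12, those of Ppara and Esrra, and in 2.71% of all 32851 windows. The letters CCGGAAGT, bound by GABP, occurred in a window of Tfam and in 3.89% of all windows. The cAMP response element half-site TGACG occurred in windows of Ppara and Ppargc1a and in 20.81% of all windows. The RefSeq start of Ppargc1a lies 13803 bases upstream of the start of the deposited transcript. Neither the ERR letters TCAAGGTCA (0.42% of all windows) nor a direct repeat with 1 spacer, AGGTCANAGGTCA (0.04%), occurred in any of the 12 windows of these 7 members. The stretch of Ppara between the first exons of Ppara-203 and Ppara-202 (chr15:85735714-85735775, plus strand) and the stretch just upstream of Esrra (chr19:6921814-6922058, minus strand) are shown because the first lies between the start sites of those 2 transcripts and both hold the NRF1 letters, given in capitals. In Ppara 2 overlapping matches on the 2 strands make up the capitals. Neither stretch overlaps an annotated exon.
Ppara: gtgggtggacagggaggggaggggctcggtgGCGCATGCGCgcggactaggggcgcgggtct
Esrra: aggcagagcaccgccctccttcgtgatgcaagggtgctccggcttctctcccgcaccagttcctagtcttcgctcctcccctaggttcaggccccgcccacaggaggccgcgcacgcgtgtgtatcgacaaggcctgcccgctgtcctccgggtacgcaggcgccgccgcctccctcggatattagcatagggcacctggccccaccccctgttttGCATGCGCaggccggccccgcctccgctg
A match of letters is a description and not a binding site.

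Many genes that PPARα is known to switch on fell in injured WT kidneys, and several rose in injured CKO kidneys. In WT, 21 of 48 tested targets fell and 3 rose, where 11.8% of all tested genes fell and 23.5% rose. Their median was -0.40 (log2), beside 0.12 for all tested genes. In CKO, 1 fell and 10 rose, where 2.02% of all tested genes fell and 6.6% rose, and the median was 0.19, beside 0.08 for all tested genes. Ehhadh, the bifunctional enzyme of peroxisomal β-oxidation, fell most clearly in WT, to 52.5, 51.5 and 65.0 FPKM in WT IRI 13, 24 and 49, against 264, 258 and 287 FPKM in WT sham 1, 2 and 3 (-2.24, log2, SE 0.21, limma adjusted p = 5.69e-05). The WT groups lay far apart. In CKO the gene measured 194, 158 and 95.8 FPKM in CKO IRI and 219, 257 and 206 FPKM in CKO sham, and was not called (limma adjusted p = 0.0728). Acadm, the medium-chain acyl-CoA dehydrogenase, fell in both genotypes, by log2 differences of -2.08 in WT (limma adjusted p = 0.000771) and -1.07 in CKO (limma adjusted p = 0.0475). Further falls in WT were those of Etfdh (-1.04), Hadh (-0.91), Hadhb (-1.02) and Acaa2 (-0.94), which encode steps of mitochondrial β-oxidation and its electron transfer. In CKO these 4 changed by 0.18, -0.13, -0.01 and -0.15, with limma adjusted p from 0.561 to 0.977.

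The clearest rise in CKO was that of Cyp4a14, a fatty acid ω-hydroxylase and classical PPARα target in mouse. It measured 382, 248 and 297 FPKM in CKO IRI 7, 15 and 29, against 81.4, 136 and 130 FPKM in CKO sham 1, 2 and 3 (1.42, log2, SE 0.23, limma adjusted p = 0.0043). In WT it measured 192, 137 and 137 FPKM in WT IRI 13, 24 and 49, against 172, 152 and 176 FPKM in WT sham 1, 2 and 3, and these libraries overlapped. Pex11a, which acts in peroxisome proliferation, rose by 0.70 (limma adjusted p = 0.0152) in CKO, and Vnn1, a pantetheinase, by 0.98 (limma adjusted p = 0.0171). In WT those 2 genes differed by 0.23 and -0.40 and were not called. The members of the Cyp4a and Acot families are near-identical copies whose reads can be split between them, so their single values are uncertain.

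The difference between genotypes in these targets depended on the weights of the fit. By the interaction 0 of 48 targets were called in limma with weights per group, while 27 had an unadjusted p under 0.05, each with a positive interaction, where 7.39% of all tested genes had one. The median interaction was 0.77 (log2) beside -0.06 for all tested genes. Between CKO sham and WT sham 0 targets were called, while 11 were lower and 1 higher at an unadjusted p under 0.05 in limma. Of all tested genes, 8.48% were lower and 9.28% higher at that level. The median sham difference was -0.20 beside 0.01 for all tested genes, and the interaction includes this difference. With weights per library, 16 of 48 had a called positive interaction, where 2.78% of all tested genes did. Between CKO IRI and WT IRI directly, 0 were called, 27 were higher and 0 lower at an unadjusted p under 0.05, where 4.96% of all tested genes were higher at that level, with a median of 0.54 beside -0.05 for all tested genes. With weights per library 19 of 48 were called higher in CKO IRI than in WT IRI, where 2.57% of all tested genes were. The counts leaned on single libraries. Falls in WT numbered 6 without WT IRI 24. Rises in CKO numbered 1 when CKO IRI 7 was left out and 1 when CKO sham 3 was. They numbered 3 without CKO sham 2, 6 without CKO IRI 15 and 5 with trimmed-mean scaling, and 22 with weights per library, where 18.2% of all tested genes were called higher. Rises in WT numbered 1 without WT IRI 13, 0 when WT IRI 24 was left out and 5 when CKO IRI 7 was. The 1 fall in CKO, that of Acadm, was lost when any WT sham library, CKO sham 2, CKO sham 3, WT IRI 13, CKO IRI 7 or CKO IRI 29 was left out. Slc27a2, a fatty acid transport protein, is held by both this list and that of the proximal tubule, whose markers were given above.

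**Figure D4:**
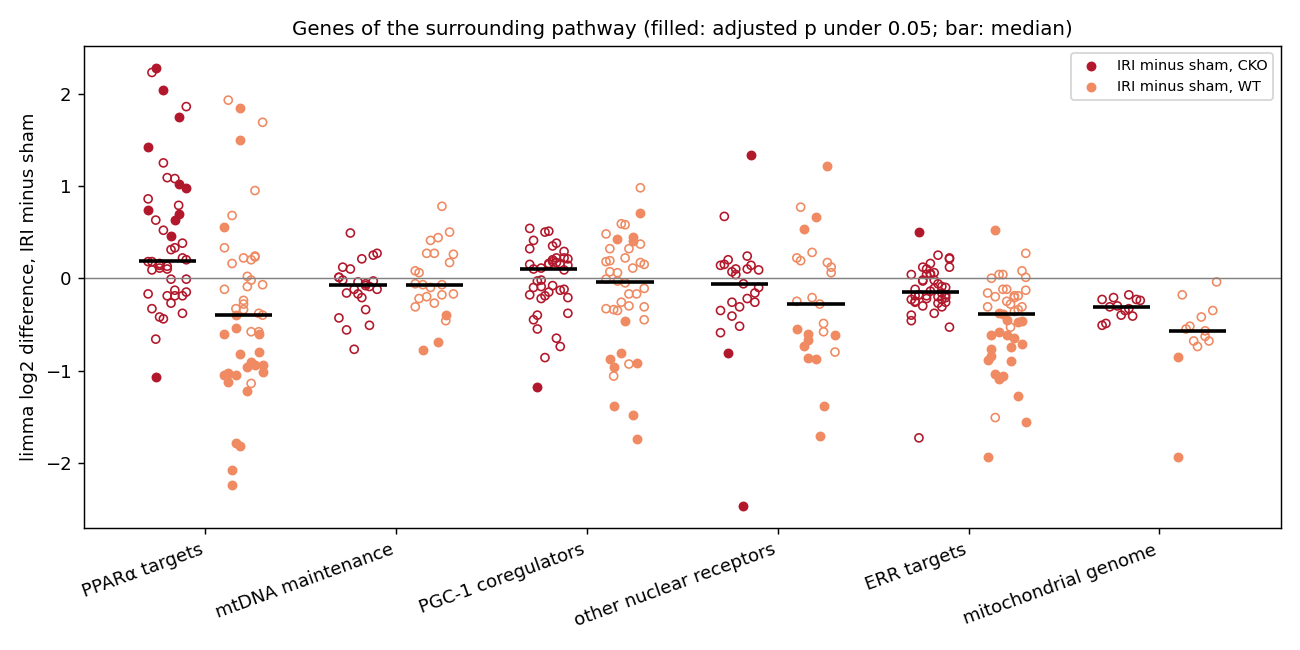
Difference between IRI and sham on the log2(FPKM + 1) scale (y axis) for each tested gene of 6 lists (x axis), CKO left of WT, with filled points for a limma adjusted p under 0.05 and a black bar at the median. PPARα targets have a median of 0.19 in CKO and -0.40 in WT, and ERR targets -0.15 in CKO and -0.39 in WT.

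ERR targets of the citric acid cycle and respiratory chain fell in WT, 21 of 44 with 1 rise and a median of -0.39 (log2), where 11.8% of all tested genes fell, 23.5% rose and the median was 0.12. In CKO, 0 fell and 1 rose, where 2.02% of all tested genes fell and 6.6% rose, and the median was -0.15. At an unadjusted p under 0.05 in limma 3 were lower in CKO, where 7.88% of all tested genes were. Ndufs1, the largest subunit of respiratory complex I, measured 26.9, 27.5 and 44.4 FPKM in WT IRI 13, 24 and 49, against 98.0, 91.4 and 99.5 FPKM in WT sham 1, 2 and 3 (-1.56, log2, SE 0.27, limma adjusted p = 0.00177). In CKO IRI 7, 15 and 29 it measured 70.4, 72.8 and 58.0 FPKM, against 40.6, 81.7 and 68.9 FPKM in CKO sham 1, 2 and 3, with CKO sham 1 lowest. Sod2, the mitochondrial superoxide dismutase, fell by 0.90 in WT, Pdha1 of pyruvate dehydrogenase by 0.84, Uqcrc2 of complex III by 0.77 and Suclg1 of succinyl-CoA ligase by 0.71, with limma adjusted p from 0.00104 to 0.00286. Ckmt1, a mitochondrial creatine kinase, rose in both genotypes, by 0.50 in CKO (limma adjusted p = 0.0113) and 0.52 in WT (limma adjusted p = 0.00309). The falls in WT numbered 7 without WT IRI 24, and 14 when the fit held the WT groups alone. The rise of Ckmt1 in CKO was lost when CKO sham 2, CKO sham 3 or CKO IRI 7 was left out, and 3 falls were called in CKO without CKO IRI 15. Between CKO IRI and WT IRI 0 were called and 16 were higher at an unadjusted p under 0.05 in limma, where 4.96% of all tested genes were. By the interaction 0 were called and 18 were positive at that level, where 7.39% of all tested genes were. With weights per library, 7 fell in CKO, where 10.2% of all tested genes fell. In that fit 11 were called higher in CKO IRI than in WT IRI, where 2.57% of all tested genes were. A called positive interaction was seen for 9, where 2.78% of all tested genes had one.

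Genes that maintain and transcribe mitochondrial DNA, the process Tfam serves, were called lower in WT about as often as genes at large. In WT 3 of 24 fell, where 11.8% of all tested genes did, and 0 rose, where 23.5% did, with 1 higher at an unadjusted p under 0.05 in limma, and in CKO 0 changed, with 2 lower at that level. The median was -0.07 in each genotype. Mterf2, a mitochondrial transcription terminator family member, measured 3.17, 2.38 and 4.05 FPKM in WT IRI 13, 24 and 49, against 6.37, 6.09 and 5.87 FPKM in WT sham 1, 2 and 3 (-0.78, log2, limma adjusted p = 0.00819). Rrm2b, a ribonucleotide reductase subunit that supplies nucleotides for mitochondrial DNA, fell by 0.69, and Tfb2m, the transcription factor that works with TFAM, by 0.40 (limma adjusted p = 0.0144 and 0.0402). The number of falls was 1 without WT IRI 13 and 0 without WT IRI 24. In CKO, 2 falls were called without CKO sham 1. In WT, 1 rise was called when CKO sham 1, CKO sham 3, WT IRI 49 or CKO IRI 15 was left out.

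TFAM starts transcription of the mitochondrial genome. Of the 13 protein-coding genes of that genome, 2 fell in WT, near the 11.8% of all tested genes that did. At an unadjusted p under 0.05 in limma, 9 were lower in WT and 0 higher. Of all tested genes, 15.8% were lower and 29.8% higher at that level. In CKO 0 fell, and 1 was lower at an unadjusted p under 0.05 in limma, where 7.88% of all tested genes were. Medians were -0.31 in CKO and -0.57 in WT. The ATP synthase gene mt-Atp6 measured 239, 3677 and 561 FPKM in WT IRI 13, 24 and 49, against 2853, 3121 and 3172 FPKM in WT sham 1, 2 and 3 (-1.94, log2, limma adjusted p = 0.0235), so WT IRI 24 was above the sham libraries and the other injured ones far below. The complex I gene mt-Nd5 measured 675, 2438 and 1842 FPKM in WT IRI 13, 24 and 49, against 2519, 2735 and 2580 FPKM in WT sham 1, 2 and 3 (limma adjusted p = 0.04). Falls in WT numbered 0 without WT IRI 13, 6 without WT IRI 24 and 9 with trimmed-mean scaling. A single fall was called when WT IRI 49, WT sham 1, WT sham 2, CKO IRI 7, CKO IRI 29 or any CKO sham library was left out.

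Coregulators and upstream regulators of PGC-1 were mixed. In WT 8 of 42 fell and 4 rose, where 11.8% of all tested genes fell and 23.5% rose. In CKO 1 fell, near the 2.02% of all tested genes, and 0 rose, where 6.6% did, with 2 lower and 4 higher at an unadjusted p under 0.05 in limma. Sirt3, a mitochondrial deacetylase, measured 19.4, 21.2 and 29 FPKM in WT IRI 13, 24 and 49, against 45.2, 45 and 46.3 FPKM in WT sham 1, 2 and 3 (-0.96, log2, limma adjusted p = 0.00351). Its values in CKO were 39.8, 42.1 and 23.0 FPKM in CKO IRI 7, 15 and 29, against 46.0, 43.2 and 45.7 FPKM in CKO sham 1, 2 and 3, and CKO IRI 29 stood low as it did for Ppargc1a. Perm1, a muscle regulator induced by PGC-1 and ERR, fell in both genotypes, by log2 differences of -1.18 in CKO (limma adjusted p = 0.0439) and -1.39 in WT (limma adjusted p = 0.0082). Other falls in WT were those of the coactivator Ncoa1 (-0.88), the AMPK subunit Prkaa2 (-0.92) and Foxo1 (-0.46), while the deacetylase Sirt6 rose by 0.71. Falls in WT numbered 4 without WT IRI 13 and 1 without WT IRI 24, and rises numbered 1 without either and 2 without WT sham 2. The fall of Perm1 in CKO was lost when WT sham 1, WT sham 2, CKO sham 2, CKO sham 3, WT IRI 13, CKO IRI 7 or CKO IRI 29 was left out, and with a pseudocount of 0.1 or 0.5.

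Nuclear receptors other than the members included Nr1d1 and Nr1d2 of the circadian clock, which fell in both genotypes. In WT 9 of 25 fell and 3 rose, where 11.8% of all tested genes fell and 23.5% rose. In CKO 2 fell and 1 rose, where 2.02% fell and 6.6% rose. Nr1d1, the clock repressor REV-ERBα, measured 10.7, 11.6 and 10.7 FPKM in CKO IRI 7, 15 and 29, against 65.4, 59.2 and 72.3 FPKM in CKO sham 1, 2 and 3 (-2.47, log2, limma adjusted p = 4.07e-05). In WT it measured 11.7, 11.1 and 24.9 FPKM in WT IRI 13, 24 and 49, against 48.1, 53.9 and 51.2 FPKM in WT sham 1, 2 and 3 (-1.71, log2, limma adjusted p = 0.000253). Its relative Nr1d2 fell by 0.81 in CKO and 0.73 in WT. Nr1h3, the oxysterol receptor LXRα, fell by 0.88 in WT, and Hnf4a, the hepatocyte nuclear factor of proximal tubule identity, by 0.86, with limma adjusted p of 0.00345 and 0.00454. Falls in WT numbered 4 without WT IRI 13 and 4 without WT IRI 24, and rises 1 without WT IRI 24.

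Likeness of pattern was measured as the root-mean-square difference of log2(FPKM + 1) over the 12 libraries, each gene centred on its own mean, and it carries no test. The genes nearest to Ppargc1a were Zmynd12 (0.075), Aig1 (0.098), Kiz (0.109), Rmdn1 (0.112) and Gpc4 (0.112), where Ppargc1a itself varied by 0.289 about its mean. Esrrg lay nearest to Tpp1 (0.164), Zdhhc9 (0.168) and Arsb (0.189), of which the first and last encode lysosomal enzymes. Nrf1 lay nearest to Cyth2 (0.131), Pelp1 (0.143) and Dcaf15 (0.143). For Ppara the nearest were Gpam (0.167), which starts glycerolipid synthesis, Enpp2 (0.27) and Slc30a2 (0.272). Esrra was nearest to Sil1 (0.102), Pex5 (0.103) and Ccdc51 (0.104), and Tfam to Yod1 (0.141), Med17 (0.144) and Hmox2 (0.148). Rxra was nearest to Rreb1 (0.203), Ston1 (0.226) and Ipo11 (0.256), and Ppargc1b to Cd164l2 (0.127), Evpl (0.173) and Myh14 (0.184). No member was among the nearest genes of another member. Libraries of the same group and the same sum share these points, so nearness is a description of 12 libraries.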

How the data were processed

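The authors deposited 1 table of 25790 transcripts by 12 libraries, read here as FPKM because its header names no unit. It could also hold TPM, which differs by 1 factor per library. Cutadapt, HISAT2 2.1.0 and StringTie were used, per the submitters' processing notes. Those name the human build GRCh38, whereas the identifiers are mouse. Strand-marked libraries were made with dUTP, per the labels' protocols. The strand setting was not given. Identifiers without their version matched GENCODE M21 (GRCm38) for 25740 transcripts. The 50 unmatched ones held at most 0.103% of any library. Every row has a group mean of at least 0.5 FPKM. Sequences are from RefSeq (GRCm38.p6).

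Values were summed per gene. Genes that reached 1 FPKM in 3 or more libraries were fitted in limma 3.58.1 (R 4.3.3) on log2(FPKM + 1), a scale that understates changes of low genes, with 1 mean per group, weights estimated per group and a mean-variance trend. Tests were two-sided. Weights per group were chosen because injured kidneys varied more. On simulated data with 200 of 12469 genes changed, 8.3% of calls were false in CKO against WT after IRI, against 31.8% with 1 shared spread. In CKO against WT in sham these were 5.7% and 0.8%. Weights per library gave the same 8.3% and 5.7%. All simulated libraries of a group were drawn with the same spread, so the simulated data could not decide between weights per group and per library. In IRI against sham in WT, weights per group gave 8.1% false calls and recovered 2% of genes set to differ by 0.5 (log2). The deposited data had 35.4% of tested genes called there, a far larger share than 200 of 12469. Libraries agreed across genes within groups with r from 0.93 to 0.986, and 0 pairs were identical. Alternatives changed the pseudocount (0.1, 0.5), filter, scaling, weights, transcript summing and libraries. The depth is unknown, so no counting error is given.

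The 8 genes and the lists were chosen with earlier results of these data known. Named were all members and, from each list, up to 6 genes of smallest p in WT and 3 in CKO, of which those that were called are given, plus the nearest genes by likeness (predicted names left out). Slc27a2 was named for its place in 2 lists. A result for 1 gene of the nuclear receptor list is not reported here.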

Additional observations from a re-analysis of the deposited data

How the results depend on the processing

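Over 40 results of the 8 regulators (8 genes in 5 comparisons), 873 of 915 values under an alternative kept direction and side of the threshold, 12 lost a call, 8 gained one and 22 changed sign. In WT, 2 members were called after injury, against 4 with weights per library (Nrf1 and Rxra added), 1 with only the WT groups fitted (Nrf1), and 0 to 2 when single libraries were left out. In CKO 1 member, Esrra at -0.36, was called with weights per library. Sign changes were of small, uncalled differences. Esrra in WT was 0.01 with the highest transcript only and -0.20 to 0.09 with a library left out. Tfam in CKO was -0.07, -0.08 and -0.03 with trimmed-mean scaling, quantile normalization and weights per library, and -0.11 to 0.23 with a library left out. Left-out libraries also gave -0.08 to 0.39 for Ppara and -0.40 to 0.06 for Ppargc1b in CKO. For CKO against WT in sham, Esrra was 0.08 and Nrf1 0.13 with the highest transcript only, and -0.08 to 0.02 and -0.27 to 0.04 with a library left out. After IRI, Ppargc1b was 0.30 with weights per library, and with a library left out Ppargc1b ranged from -0.36 to 0.19, Rxra from -0.05 to 0.79 and Tfam from -0.02 to 0.15. The interaction of Ppargc1b ranged from -0.08 to 0.48. The cause was not tested.

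Counts of all genes called moved more. In WT 4408 were called (1840 to 4344 with a library left out), split 2936 higher and 1472 lower, against 2082 and 2146 with trimmed-mean scaling and 2088 and 2011 with quantile normalization, which shift the median of all genes from 0.12 to -0.01 and -0.02. In CKO 1075 were called, against 3551 with weights per library, 697 with the highest transcript only, 476 with only the CKO groups and 252 to 1672 with a library left out, and the split of 823 higher and 252 lower became 663 and 375 with trimmed-mean scaling and 625 and 390 with quantile normalization. In sham 17 were called, against 33 with no filter, 26 rescaled to TPM, 0 with 1 shared spread, 124 with weights per library, 26 with the highest transcript only, 11 with only the sham groups and 0 to 88 with a library left out. After IRI 2 were called, against 1 at 5 FPKM, 5 with 1 shared spread, 723 with weights per library, 6 with the highest transcript only, 0 with only the injured groups and 2 to 49 with a library left out. The interaction called 2, against 1, 841 and 6 at 5 FPKM, with weights per library and with the highest transcript only, and 1 to 39 with a library left out.

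Sham libraries share replicate numbers between genotypes, but same-numbered libraries did not deviate together (r of 0.004, -0.031 and -0.002). With the replicate number as a block in the sham groups, 0 genes and 0 members were called. A group size of 3 limits what can be seen, and the read depth is unknown.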
